A study of Macaca mulatta with 12 samples.

Results

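MRAP encodes the melanocortin receptor accessory protein, and it was followed here through the second part of the luteal phase in rhesus macaques. It was chosen by its measured values on these arrays, for the large decrease in late regressed corpora lutea, so its levels are described without a test. It is 1 of 14132 genes on the array with a single symbol in the platform annotation, and 2 of the 52707 probe sets tested carry exactly that symbol. In the reference gene table (assembly T2T-MMU8v2.0) it is a protein-coding gene on chromosome 3.

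The corpora lutea came from female animals with normal menstrual cycles, and the labels give no drug treatment. In the late regressed group they were taken on days 14 to 16 after the LH surge at a serum progesterone below 0.5 ng/ml (n = 4). Late functional corpora lutea came from the same days at a serum progesterone above 1.5 ng/ml (n = 4). Mid-late corpora lutea, the baseline, were taken on days 10 to 12 (n = 4).

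MRAP is a small single-pass membrane protein that is needed for the melanocortin 2 receptor, MC2R, to reach the cell surface and to bind ACTH. Bound MC2R acts through the stimulatory G protein, adenylyl cyclase and protein kinase A, and in the adrenal cortex this signal drives steroid synthesis. In people, loss of MRAP causes familial glucocorticoid deficiency. The corpus luteum is driven mainly by LH, whose receptor also acts through cyclic AMP. MRAP is also expressed in adipocytes, where its role was studied mainly in mice.

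Values below are RMA values on a log2 scale unless a fold is named, with mean ± SD over 4 arrays per group. A set of 674 probe sets with the prefix NC, whose targets no source used here describes, served as a low-signal set. The 95th percentile of their means was 4.64. Late regressed arrays 2 and 3 stood apart from the other arrays on the first principal component (scores of 93.2 and 81.6, against -43 to 12.6), which held 40.8% of the variance. Array 2 also had the highest 3′ to 5′ difference of the control probe sets, at 2.52, and array 3 had 0.46. The means of the NC set were 3.55 ± 0.05 in late regressed, 3.57 ± 0.04 in late functional and 3.69 ± 0.05 in mid-late arrays.

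The luteal label was checked with 10 marker genes of steroidogenic luteal cells. CYP11A1 and LHCGR have no probe set under their symbols in the annotation used, and the other 8 all exceeded 4.64 in at least 1 group mean. Their mean level per array ran from 8.64 to 10.26 in late regressed, from 10.37 to 10.81 in late functional and from 10.83 to 11.05 in mid-late corpora lutea. In whole glands, fewer cells of a type and less RNA per cell cannot be told apart.

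MRAP was at 7.70, 4.52, 4.31 and 5.76 on late regressed arrays 1 to 4, at 8.42, 8.53, 7.98 and 7.55 on late functional arrays 1 to 4, and at 9.25, 8.82, 8.54 and 8.86 on mid-late arrays 1 to 4. All 4 late regressed arrays lay below all 4 mid-late arrays, as did 9.26% of all probe sets in that comparison, which the choice of the gene had used. Late regressed arrays 2 and 3 lay below 4.64, the 95th percentile of the low-signal set, but above that set's mean there (3.57 and 3.48). Late regressed array 1 lay within the range of the late functional group. The late functional arrays also lay below every mid-late array, as did 8.53% of all probe sets, but the highest late functional array (8.53) and the lowest mid-late array (8.54) almost met.

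**Figure D1:**
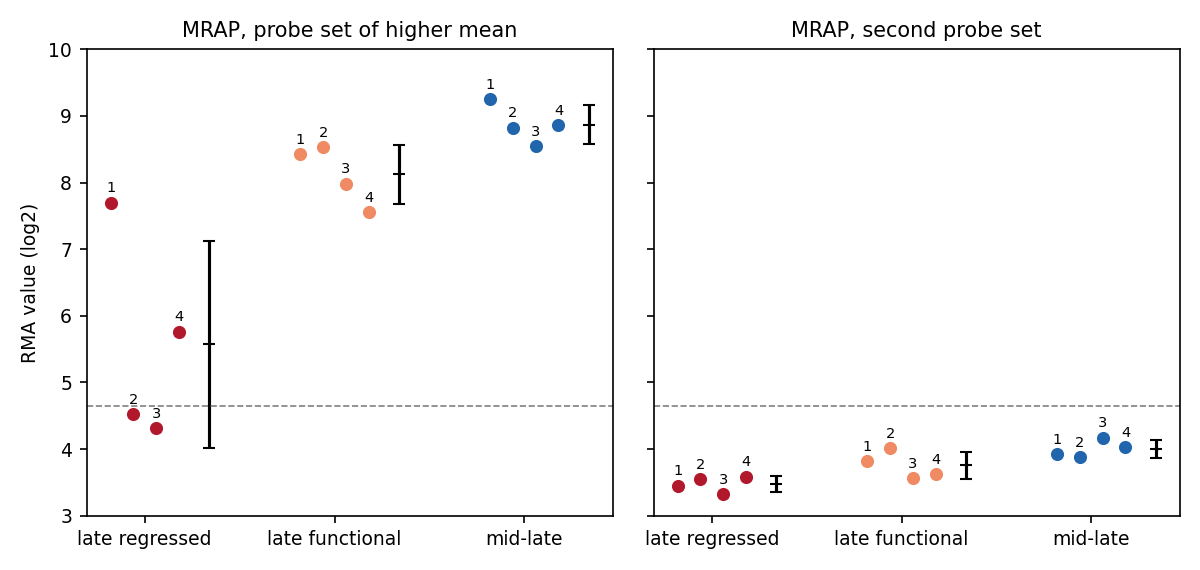
RMA values (log2) of both MRAP probe sets on each array, with the array number above each point and the mean ± SD (n = 4) as a bar beside each group. The dashed line marks the 95th percentile of the NC probe sets (4.64). In the left panel the late regressed arrays spread from 4.31 to 7.70 and the mid-late arrays from 8.54 to 9.25, and in the right panel all 12 arrays lie below the line.

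By group the means were 5.57 ± 1.55 in late regressed, 8.12 ± 0.45 in late functional and 8.87 ± 0.29 in mid-late corpora lutea. The log2 difference was -3.30 (SE 0.59 of limma's fit) for late regressed against mid-late glands, a 9.83-fold lower level. Against late functional glands it was -2.55 (SE 0.59, 5.86-fold), with late regressed array 1 above late functional array 4, so that the groups overlapped; 2.47% of all probe sets were lower on all 4 late regressed arrays there. For late functional against mid-late glands it was -0.75 (SE 0.59, 1.68-fold), larger than the SD of either group but little above the SE, which rests on a spread shared with the late regressed group. These 3 comparisons share arrays.

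The spread of MRAP was widest among the late regressed arrays. Their range was 3.39, against 0.98 in late functional and 0.70 in mid-late arrays. Relative to the mid-late mean, MRAP was 2.25-fold lower on late regressed array 1, 8.63-fold on array 4, 20.3-fold on array 2 and 23.6-fold on array 3. Folds on arrays 2 and 3 are taken at low signal and their size is uncertain. Without these arrays the late regressed mean was 6.73, and the log2 difference became -2.14 from mid-late and -1.39 from late functional glands. Leaving out array 1 instead made them -4.00 and -3.26. Array 2 had the highest 3′ to 5′ difference and array 3 the lowest of the 12. The MRAP values on them were close together but below 4.64, so this closeness cannot bear on the 3′ to 5′ difference.

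The second MRAP probe set lay below 4.64 on all 12 arrays. Its values were 3.45, 3.55, 3.32 and 3.58 on late regressed, 3.82, 4.01, 3.57 and 3.62 on late functional, and 3.92, 3.87, 4.17 and 4.03 on mid-late arrays 1 to 4. The late regressed arrays were again below every mid-late array, with a log2 difference of -0.52 (SE 0.11), and both late groups overlapped. At this signal the size of the difference cannot be read, and the mean of the NC set itself differed by -0.14 between these groups. Averaging both probe sets gave -1.91 for late regressed against mid-late glands. No source used here says which part of the transcript each probe set targets.

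MC2R, the receptor that MRAP serves, was at low signal throughout. Its 2 probe sets ran from 3.15 to 3.44 and from 3.70 to 4.05 over the 12 arrays, below 4.64 on every one. For the higher of them the groups averaged 3.89 ± 0.14 in late regressed, 3.87 ± 0.09 in late functional and 3.93 ± 0.12 in mid-late corpora lutea, which limma did not separate (late regressed against mid-late, -0.04, adjusted p = 0.812). A transcript below the detection of these probe sets cannot be told from none.

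MRAP2, the paralogue of MRAP that acts on other melanocortin receptors as well, was also below 4.64 on all 12 arrays. It had 4.12, 4.53, 3.98 and 4.36 on late regressed, 3.81, 3.81, 3.64 and 4.02 on late functional, and 3.94, 3.61, 3.93 and 3.84 on mid-late arrays. The late regressed values were higher than all mid-late values, at low signal, and the share of all probe sets with that order was not counted. By limma the difference was not called (0.42, SE 0.13, adjusted p = 0.0571). It was called without late regressed array 1 (0.0495) or 3 (0.0478), after median centring (0.0421) or renewed quantile normalization (0.038) and with a trended robust prior (0.0489).

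Of 12 genes in the list of the melanocortin system, 8 had a probe set. Between late regressed and mid-late glands 0 rose, 1 fell and 7 did not pass, where 10% of all probe sets were called by limma in that comparison. The gene that fell was PCSK2, a convertase that processes peptide hormone precursors (-0.46, SE 0.11, adjusted p = 0.0263), and its values lay below 4.64 on all 12 arrays. Its call was lost without mid-late array 1 or 2 or late regressed array 3 (adjusted p up to 0.0717). POMC, which encodes the ACTH precursor, averaged 4.62 ± 0.22 in late regressed, 4.52 ± 0.08 in late functional and 4.85 ± 0.17 in mid-late glands, close to the low-signal limit. MC5R, a melanocortin receptor of exocrine glands in mice, averaged 4.59 ± 0.13 in late regressed, 4.51 ± 0.07 in late functional and 4.66 ± 0.21 in mid-late glands. Only POMC and MC5R of the 8 had a group mean above 4.64. The median log2 difference of the list was -0.12, beside -0.04 over all probe sets.

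Other proteins also escort receptors through the secretory route, and 10 of 13 genes of such families were measured. In late regressed against mid-late glands 2 fell, 0 rose and 8 did not pass, beside 10% of all probe sets called. REEP4, of a family of endoplasmic reticulum proteins, had a log2 difference of -0.39 (SE 0.09, adjusted p = 0.025). RTP2, whose relatives carry odorant receptors to the membrane in mice, had -0.33 (SE 0.06, adjusted p = 0.0109) and lay below 4.64 on all arrays. The RTP2 call held in all 12 fits that left out 1 array but not without late regressed arrays 2 and 3 together, where its difference was about as large (-0.32, adjusted p = 0.0555). The REEP4 call was lost in 4, without mid-late array 1, 2 or 3 or late regressed array 3 (adjusted p up to 0.0666). RAMP2, which turns the calcitonin receptor-like receptor into an adrenomedullin receptor, averaged 8.81 ± 0.47 in late regressed, 8.76 ± 0.14 in late functional and 8.47 ± 0.13 in mid-late glands (late regressed against mid-late, adjusted p = 0.247). RAMP1 had a difference of 0.10 in that comparison (adjusted p = 0.607). In late functional against mid-late glands RTP4 rose by 0.86 (SE 0.11, adjusted p = 0.0194), where 0.892% of all probe sets were called, and the other 9 did not pass. The RTP4 call was lost without late functional array 2 or 3 (adjusted p up to 0.0792).

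Downstream of a receptor such as MC2R lie adenylyl cyclases, protein kinase A, phosphodiesterases and the CREB coactivators. Of 36 such genes 34 were measured, and in late regressed against mid-late glands 6 rose, 1 fell and 27 did not pass, where 10% of all probe sets were called. The adenylyl cyclase gene ADCY4 had 8.64, 8.73, 8.74 and 8.63 on late regressed arrays and 8.14, 8.22, 8.21 and 8.17 on mid-late arrays, without overlap (0.50, SE 0.07, adjusted p = 0.00716). ADCY6, another cyclase gene, rose by 0.57 (SE 0.12, adjusted p = 0.0177). CRTC2 and CRTC3, coactivators of the cyclic AMP response factor CREB, rose by 0.58 (SE 0.09, adjusted p = 0.00742) and 0.55 (SE 0.12, adjusted p = 0.0231). PDE4A, which degrades cyclic AMP, rose by 0.83 (adjusted p = 0.0346). ARRB2, an arrestin that uncouples receptors from G proteins, rose by 0.87 (adjusted p = 0.0449). PDE4D was the one that fell (-0.40, adjusted p = 0.0325), with a value above 4.64 on 1 array.

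The calls of ADCY4, ADCY6 and CRTC2 held in all 12 fits without 1 array. Those of CRTC3 and PDE4D held in 8 and were lost without mid-late array 1, 2 or 3 or late regressed array 3 (adjusted p up to 0.0772). That of PDE4A held in 4 and that of ARRB2 in 2, with adjusted p-values up to 0.113. Without late regressed arrays 2 and 3, ADCY6 had 0.64 (adjusted p = 0.0532), while PDE4A shrank to 0.38 (adjusted p = 0.107), ARRB2 to 0.34 (adjusted p = 0.198) and CRTC3 to 0.35 (adjusted p = 0.0816). The median difference of the list was 0.04, and the range of its mean level was 6.49 to 6.70 in late regressed and 6.51 to 6.55 in mid-late arrays. In late functional against mid-late glands ADCY4 alone of the list was called (0.36, adjusted p = 0.0484), beside 0.892% of all probe sets, and it kept that call in 1 of the 12 fits without 1 array (adjusted p up to 0.134).

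Steroid synthesis genes under the control of tropic hormones included HSD3B2, whose decrease was nearest in size to that of MRAP among the listed genes. Of 24 genes 17 were measured, and in late regressed against mid-late glands 3 fell, 0 rose and 14 did not pass, beside 10% of all probe sets called. HSD3B2, the enzyme that makes progesterone from pregnenolone, was at 8.52, 9.04, 7.93 and 8.70 on late regressed, 10.52, 10.43, 9.88 and 9.04 on late functional, and 11.64, 12.05, 11.16 and 11.78 on mid-late arrays 1 to 4. It fell by 3.11 against mid-late glands (SE 0.33, adjusted p = 0.00548). FDXR, which supplies electrons to mitochondrial steroid enzymes, had -1.66 (SE 0.43, adjusted p = 0.0354), and -0.80 without late regressed arrays 2 and 3 (adjusted p = 0.191). CYP11B2, the adrenal aldosterone synthase, had -0.35 (adjusted p = 0.0479), and -0.18 without both arrays (adjusted p = 0.311). Leaving out 1 array at a time kept the HSD3B2 call in 12, the FDXR call in 4 and the CYP11B2 call in 3 of 12 fits, with adjusted p-values up to 0.118. Against late functional glands none of the 3 was called with all arrays, but HSD3B2 was without late functional array 4 (adjusted p = 0.0391) and FDXR without late regressed array 1 (adjusted p = 0.0408). Without late regressed array 1, 924 of the 52707 probe sets were called there, against 1 with all arrays. CYP11B2 and its near-identical neighbour CYP11B1 may share signal on an array.

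STAR, which carries cholesterol into mitochondria and is induced by ACTH in the adrenal cortex, was at 13.54, 10.14, 9.68 and 11.92 on late regressed arrays. It was at 13.63, 13.69, 13.53 and 13.15 on late functional, and at 13.66, 13.55, 13.38 and 13.49 on mid-late arrays. Late regressed array 1 thus lay within the mid-late range, and limma did not call the difference (-2.20, SE 0.64, adjusted p = 0.0508). Without late regressed array 1 it was called against mid-late (adjusted p = 0.00301) and late functional glands (adjusted p = 0.0104). Calls over all 52707 probe sets also rose without that array, from 5282 to 7532 and from 1 to 924. STAR was called against mid-late glands with either filter on low signal too (adjusted p = 0.0382 and 0.0369). It was also called (0.0491) when other genes were averaged over their probe sets. That changed the number of tests but not the difference of STAR, a gene with 1 probe set. Against mid-late glands these were 1 of 12 fits without 1 array and 3 of 12 other alternatives.

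Array by array, MRAP followed STAR and FDXR more closely than HSD3B2 inside the late regressed group. Late regressed array 1 differed from the mid-late mean by -1.17 for MRAP, -0.46 for FDXR and 0.02 for STAR, and by -3.14 for HSD3B2. On arrays 2 and 3 the differences were -4.34 and -4.56 for MRAP, -3.38 and -3.84 for STAR, -2.49 and -2.54 for FDXR, and -2.61 and -3.73 for HSD3B2. With each group mean subtracted, the correlation of MRAP with STAR over the 12 arrays was 0.97, with FDXR 0.89 and with HSD3B2 0.28, as a description. This contrast rested largely on late regressed arrays 2 and 3. Without them, and with the group means kept, the correlations were 0.90 for STAR, 0.80 for FDXR and 0.83 for HSD3B2. Spearman's rho over the 12 arrays was 0.73 for STAR, 0.83 for FDXR and 0.90 for HSD3B2. Among the late functional arrays, array 4 was the lowest for all 4 genes. On the late functional arrays MRAP differed from the mid-late mean by -1.32 to -0.34, HSD3B2 by -2.61 to -1.13 and STAR by -0.36 to 0.17. HSD3B2 was called in late functional against mid-late glands (-1.69, adjusted p = 0.0435), a call kept in 2 of the 12 fits without 1 array (adjusted p up to 0.122), and STAR was not (-0.02, adjusted p = 0.993).

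**Figure D2:**
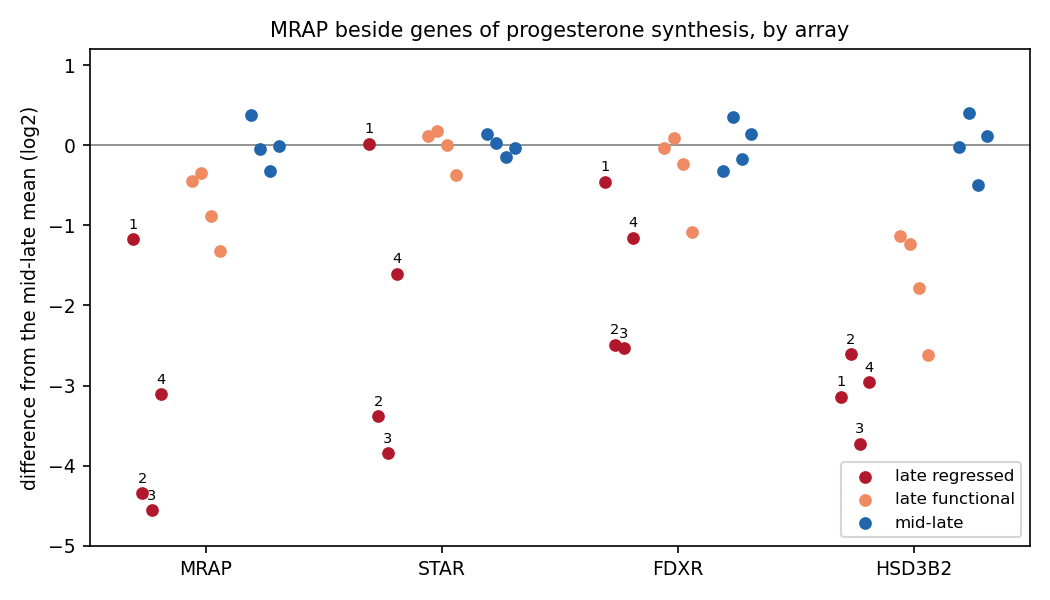
Difference of each array from the mid-late mean of the same gene (log2) for MRAP, STAR, FDXR and HSD3B2, with late regressed array numbers printed above their points. Late regressed array 1 lies near the late functional points for MRAP, STAR and FDXR and among the other late regressed arrays for HSD3B2.

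The transcription factor genes NR5A1 and NR5A2, which drive steroid enzyme genes, did not pass in the same fit. NR5A1 averaged 6.53 ± 0.50 in late regressed, 6.74 ± 0.02 in late functional and 7.02 ± 0.08 in mid-late glands (late regressed against mid-late, adjusted p = 0.116). NR5A2 averaged 8.80 ± 0.55 in late regressed, 9.32 ± 0.31 in late functional and 9.58 ± 0.13 in mid-late glands (adjusted p = 0.0579). FDX1, the electron carrier that FDXR reduces, had a difference of -0.62 (adjusted p = 0.12). Without late regressed array 1 all 3 were called (adjusted p = 0.0461 for NR5A1, 0.028 for NR5A2 and 0.0445 for FDX1), and NR5A2 also without array 4 (0.0327). Without array 1, 7532 of the 52707 probe sets were called in that comparison, against 5282 with all arrays. Both filters on low signal, and the mean over its probe sets, also gave a call for NR5A2. The median difference of the steroid synthesis list was -0.39, beside -0.04 over all probe sets.

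Besides MRAP, 8 genes known from familial glucocorticoid deficiency in people were listed and 5 were measured. By limma 0 of them were called in late regressed against mid-late glands, beside 10% of all probe sets, a count too small to read. STAR was the 1 gene with an unadjusted p below 0.05, a share not counted over all probe sets in that comparison. NNT, a mitochondrial transhydrogenase that supplies NADPH, averaged 7.70 ± 0.40 in late regressed, 7.57 ± 0.03 in late functional and 7.57 ± 0.11 in mid-late glands (late regressed against mid-late, adjusted p = 0.629). SGPL1, the sphingosine phosphate lyase, was at 6.63, 8.42, 8.61 and 6.84 on late regressed arrays and at 7.18, 6.39, 7.25 and 7.11 on mid-late arrays (adjusted p = 0.313).

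Adipocyte genes were listed because fat cells express MRAP. Of 19 genes 14 were measured, and in late regressed against mid-late glands 2 rose, 0 fell and 12 did not pass, a share near the 10% of all probe sets called. LPL, which releases fatty acids from lipoproteins, was at 6.96, 10.65, 10.77 and 6.81 on late regressed and at 5.03, 5.67, 5.93 and 5.63 on mid-late arrays (3.23, SE 0.82, adjusted p = 0.0327). CEBPA, a transcription factor of adipocytes and myeloid cells, was at 7.20, 8.70, 9.30 and 6.71 on late regressed and at 6.18, 5.90, 5.77 and 5.48 on mid-late arrays (2.14, SE 0.46, adjusted p = 0.0185). Both were highest on late regressed arrays 2 and 3, where MRAP was lowest, and without these arrays they were 1.32 (adjusted p = 0.0426) and 1.12 (adjusted p = 0.0288). The CEBPA call held in all 12 fits without 1 array and that of LPL in 6 (adjusted p up to 0.0833).

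Of the defining fat cell genes, ADIPOQ, which encodes adiponectin, averaged 6.26 ± 0.20 in late regressed, 6.19 ± 0.08 in late functional and 6.08 ± 0.03 in mid-late glands (late regressed against mid-late, adjusted p = 0.221). LEP, which encodes leptin, had a difference of 0.07 (adjusted p = 0.709). FABP4, a fatty acid binding protein of fat cells and macrophages, was at 4.62, 6.23, 7.43 and 4.83 on late regressed, 4.36, 4.15, 4.61 and 8.45 on late functional, and 4.69, 4.60, 5.02 and 5.11 on mid-late arrays. It was high on late regressed arrays 2 and 3 and on late functional array 4, which was the lowest of its group for MRAP. PPARG, the regulator of fat cell formation, had 7.78 and 7.76 on late regressed arrays 2 and 3, beside 6.94 and 6.55 on arrays 1 and 4, and was not called against mid-late glands (0.54, adjusted p = 0.17; 0.0378 without array 4).

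Over the 3 groups, limma called 15 of the 86 measured list genes in late regressed against mid-late glands (17.4%), beside 10% of all probe sets. It called 0 in late regressed against late functional glands, beside 0.0019% of all probe sets, and 17 of the 86 (19.8%) had an unadjusted p below 0.05 there, beside 11.8% of all probe sets. In late functional against mid-late glands it called 3 (3.49%), beside 0.892%. The median differences of the 86 genes were -0.04, 0.01 and -0.01 in these comparisons, beside -0.04, 0.00 and -0.02 over all probe sets. The lists were chosen with earlier results of these data known, so a share above the background does not support them. The shares are also over unlike sets. A list gene was represented by its probe set of highest mean, while the 52707 probe sets include 27390 without a symbol and the NC set.

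**Figure D3:**
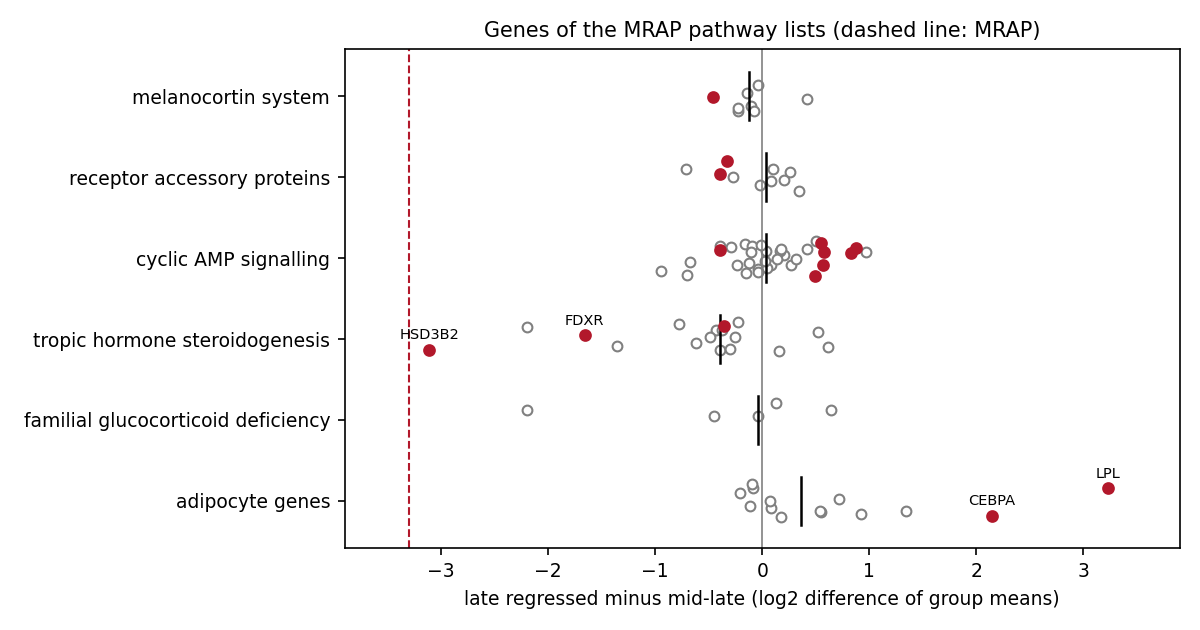
Log2 difference of late regressed from mid-late group means for the measured genes of each list, with genes called by limma filled and the others open, and a black bar at the list's median. The dashed line marks MRAP, which was chosen for its large decrease, at -3.30, beyond every listed gene. HSD3B2 at -3.11 is nearest to it, and LPL at 3.23 lies on the opposite side.

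Markers of other cell types differed between the arrays as well. The 12 measured macrophage markers of 14 averaged 7.41 to 8.88 per array in late regressed, 8.13 to 8.22 in late functional and 6.41 to 7.98 in mid-late glands, and 11 of them exceeded 4.64 in some group mean. The 5 measured adipocyte markers of 7 averaged 6.23, 7.38, 7.24 and 5.85 on late regressed arrays 1 to 4, 5.89 to 6.89 on late functional and 6.00 to 6.05 on mid-late arrays. That mean does not stand for each marker. In late regressed against mid-late glands ADIPOQ differed by 0.18, LEP by 0.07 and FABP4 by 0.92, with a median of 0.72 over the 5. The 7 adrenal cortex markers averaged 5.73 to 5.93 in late regressed, 5.99 to 6.11 in late functional and 5.98 to 6.46 in mid-late glands, and the group means of MC2R, CYP21A2 and SULT2A1 did not exceed 4.64. The 10 endothelial markers averaged 8.74 to 9.07 in late regressed, 8.71 to 8.89 in late functional and 8.51 to 8.66 in mid-late glands. Fibroblast markers (8 measured) averaged 8.32 to 8.64 in late regressed, 8.10 to 8.45 in late functional and 7.71 to 8.60 in mid-late glands. Between late regressed and mid-late glands, 4 fibroblast and 4 endothelial markers were called higher, 2 adrenal cortex markers lower, and 0 macrophage or adipocyte markers. In that comparison 1 of 8 lymphocyte markers was called higher and 1 of 5 smooth muscle markers lower, beside 10% of all probe sets. The part of these cells in the MRAP values was not tested.

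Genes that lie beside MRAP on chromosome 3 were measured for comparison. Of the 10 nearest entries in the reference gene table, 5 on each side, 4 were measured. By limma 0 were called in late regressed against mid-late glands, beside 10% of all probe sets. So few genes cannot show whether the neighbours share the decrease of MRAP. URB1, a nucleolar protein gene whose annotated span overlaps that of MRAP, lay between 3.53 and 4.03 on all 12 arrays, below the low-signal limit. MIS18A, a centromere protein gene, averaged 6.00 ± 0.21 in late regressed, 6.15 ± 0.69 in late functional and 6.09 ± 0.25 in mid-late glands (late regressed against mid-late, adjusted p = 0.844). SCAF4 had a difference of 0.30 (adjusted p = 0.254), and SOD1, the cytosolic superoxide dismutase gene, one of -0.13 (adjusted p = 0.591).

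The pattern of MRAP over the arrays was compared with that of 3700 other genes that ranged by at least 1 log2 unit and had a group mean above 4.64. As a description, 103 of them had a Pearson correlation with MRAP above 0.9 over the 12 arrays and 162 had one below -0.9, with a median of -0.25 over all of them. All arrays are shared between the genes, and the late regressed arrays set most of the spread. The 8 with the highest values (r between 0.97 and 0.98) were ID4, GSTA3, EHD3, OBSL1, STARD4, PLCL1, MCCC1 and NDUFA7. ID4, an inhibitor of basic helix-loop-helix transcription factors, was at 10.62, 8.07, 7.60 and 8.80 on late regressed, 10.56, 10.65, 10.26 and 9.77 on late functional, and 10.89, 10.86, 10.79 and 10.97 on mid-late arrays. GSTA3, a glutathione transferase that isomerises steroid intermediates in people, was at 11.82, 9.52, 9.51 and 11.14 on late regressed, 12.31, 12.24, 11.96 and 11.78 on late functional, and 12.46, 12.53, 12.28 and 12.36 on mid-late arrays. Both were lowest on late regressed arrays 2 and 3, as MRAP was. STARD4 carries cholesterol in the cytosol, MCCC1 is a subunit of a leucine-degrading carboxylase, and NDUFA7 is a subunit of respiratory complex I.

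The late regressed differences of these 8 genes from mid-late glands ran from -2.10 to -0.72. All were smaller than that of MRAP, which was chosen for its large decrease. Without late regressed arrays 2 and 3 their correlations with MRAP were between 0.88 and 0.98 over 10 arrays. After each group's mean was subtracted they were between 0.89 and 0.98. By this second measure ID4 (0.98), STAR (0.97), ATXN7 (0.97), HMGB3 (0.96) and ODAD3 (0.95) were highest, with values over all 12 arrays from 0.77 to 0.98. Spearman's rho over the 12 arrays was 0.97 for ID4, 0.90 for HSD3B2 and 0.73 for STAR. HSD3B2 had a correlation of 0.81 over the 12 arrays and 0.28 after the group means were subtracted, and its late regressed arrays kept a different order from those of MRAP.

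The 5 genes with the most negative correlations (between -0.99 and -0.97) were METRNL, SLC38A1, ZMIZ1, RRAGC and VWA5A. METRNL, which encodes a secreted protein of fat, muscle and macrophages, was at 6.05, 8.32, 8.39 and 7.52 on late regressed, 5.72, 5.66, 5.94 and 5.85 on late functional, and 5.47, 5.58, 5.62 and 5.49 on mid-late arrays. SLC38A1, an amino acid transporter, was at 5.17, 6.45, 6.51 and 5.86 on late regressed and at 4.81 to 5.02 on mid-late arrays. RRAGC is one of the GTPases that report amino acids to the mTOR complex. The differences of the 5 genes from mid-late glands ran from 0.77 to 2.03.

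**Figure D4:**
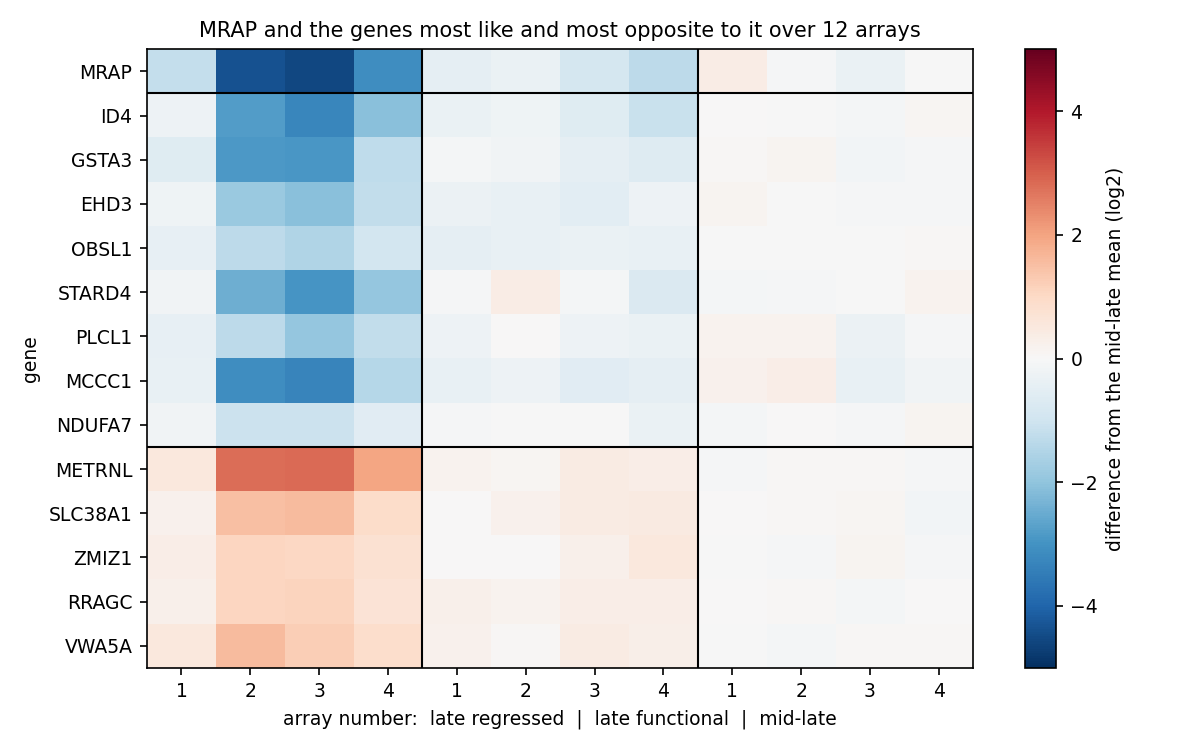
Difference of each array (columns, by group) from the mid-late mean of the same gene (rows) on a log2 colour scale, for MRAP, the 8 genes with the highest and the 5 with the most negative Pearson correlation with it over 12 arrays. Late regressed arrays 2 and 3 carry the strongest colour in every row, and array 1 the weakest of its group.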

How the data were processed

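RNA from 12 corpora lutea was measured on one-colour arrays with biotin-labelled targets, 1 array per gland. The authors deposited log2 values from RMA, 1 for each probe set on each array, per the submitters' processing notes. The settings of RMA are not stated in these sources, and their range showed the values to be log2. A quantile step, common in RMA, would hide a change in total RNA per cell. Of 52865 probe sets, 158 array controls were left out and 52707 were fitted by limma 3.58.1 (R 4.3.3) in 1 model of the 3 group means on all 12 arrays. Adjusted p-values are Benjamini-Hochberg values over all tested probe sets of a comparison, and a call means an adjusted p below 0.05. A gene was represented by its probe set of highest mean.

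MRAP was chosen for its levels in these glands, so its differences carry no test. The gene lists, comparisons and alternatives were chosen with earlier results of these data known. By the naming rule, the text names MRAP, called list genes and up to 4 others per list, the measured ones among the 5 neighbouring genes on each side, and the 8 most similar, 5 most opposite and 5 most similar genes within groups. Likeness was searched among genes with a group mean above 4.64 and a range of at least 1 log2. The same-numbered arrays of different groups had deviations that correlated between -0.12 and 0.30 (12 pairs), and other pairs between -0.24 and 0.26. The samples were treated as unpaired, though these values cannot exclude a pairing by replicate number. The labels call the arrays biological replicates. The test was also run on simulated data with independent noise of equal spread in the 3 groups. It does not cover a wider spread among late regressed arrays, such as that of MRAP. No scan date or batch is stated. The number of arrays limits the precision.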

Additional observations from a re-analysis of the deposited data

Results flagged for a closer look

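In 159 groups of 4 arrays over the 53 genes named, chance gives 1 array far from the other 3 in about 7.95 (1 in 20). Such an array was found in 9 groups, a number near that. Late functional array 4, the lowest of its group for MRAP, was the array in 5 of them: FABP4 at 8.45 (others 4.15 to 4.61), MIS18A at 5.12 (6.45 to 6.58), REEP4 at 5.83 (6.10 to 6.14), NDUFA7 at 9.35 (9.61 to 9.65) and SOD1 at 11.76 (11.35 to 11.39). The other 4 lay in mid-late arrays: SGPL1 at 6.39 on array 2 (others 7.11 to 7.25), EHD3 at 9.48 on array 1 (9.27 to 9.31), OBSL1 at 9.89 on array 4 (9.82 to 9.83) and ZMIZ1 at 7.81 on array 3 (7.64 to 7.66). No group of MRAP values was among them.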

How the results depend on the processing

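The MRAP differences kept their sign in 12 alternatives and in 12 fits that each left out 1 array, with 1 exception: with the NC mean added as a covariate, which differs between mid-late and late arrays, late functional against mid-late became 0.18. Late regressed against mid-late became -1.91 with both probe sets averaged. Without late regressed arrays 2 and 3 together it was -2.14, and late regressed against late functional was -1.39. Without 1 array these differences ran from -4.00 to -2.88 and from -3.26 to -2.13, and late functional against mid-late from -0.88 to -0.56.

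Counts of calls moved far more. Against mid-late, late regressed calls numbered 5282 probe sets and 15 list genes. They were 1620 and 4 with only both groups fitted, 2839 and 9 with array weights, 0 and 0 with the NC covariate, and 975 and 5 without late regressed arrays 2 and 3. Without 1 array they ran from 2050 to 7532 and from 6 to 23, both highest without late regressed array 1. Late regressed against late functional glands had 1 probe set and 0 list genes called. That was 10 probe sets with the median filter on signal, 15 with the filter at 4.64 or a trended robust prior, 2 with arrays centred on their medians and 5 after quantile normalization was repeated or with the NC covariate. It was 11 with array weights, and 0 with only both groups fitted, with the 3′ to 5′ covariate and without late regressed arrays 2 and 3. Without 1 array it ran from 0 to 924 probe sets, and list genes from 0 to 3, both highest without late regressed array 1. Late functional against mid-late glands had 470 probe sets and 3 list genes called. That was 107 and 1 with the median filter, 139 probe sets with the filter at 4.64, 883 with the 3′ to 5′ covariate, 2682 and 9 with only both groups fitted, 3106 and 11 with array weights, 2417 and 10 without late regressed arrays 2 and 3, and 0 and 0 with the NC covariate. Without 1 array these ran from 4 to 1008 and from 0 to 3. The cause of these shifts was not tested.

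With the replicate number as a block, 0 probe sets were called in late regressed against late functional glands and 4 probe sets and 0 list genes in late functional against mid-late glands. Same-numbered arrays deviated together slightly more than others on average (mean correlation 0.04, against -0.01), with ranges that overlapped. Of the 12 arrays, 5 correlated best with their own number, and the number expected by chance was not computed. Low signal limits the MRAP folds on late regressed arrays 2 and 3 and every value of its second probe set.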
